A study of Danio rerio with 2 samples.

Results

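Cathepsins and the subunits of the lysosomal proton pump were followed across the cells of 24 hpf zebrafish embryos sorted for *kdrl*:mCherry. The set held every row of the deposited matrices whose symbol starts with *cts*, *atp6v*, *lamp1* or *lamp2*, which gave 43 of 36351 genes. By role these were 16 cysteine cathepsins, 2 other cathepsins, 13 subunits of the V1 sector and 9 of the V0 sector of the pump, and 3 genes of lysosome-associated membrane proteins (*lamp* genes). One droplet library came from *akt*Δ/Δ embryos and 1 from WT embryos, both untreated. *akt*Δ/Δ embryos carry the CRISPR alleles *akt1* ya348, *akt2* ya349, *akt3a* ya350 and *akt3b* ya351, and both groups carry the *Tg(flt4:YFP; kdrl:mCherry)* reporters. The *kdrl* promoter, active in endothelium and its blood-forming precursors, drives the sorted mCherry. The number of embryos behind each library, and whether those of the *akt*Δ/Δ library were each genotyped, were not given in the sources used here.

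Lysosomes break down what a cell takes up by endocytosis or phagocytosis and what it delivers from within by autophagy. Cathepsins are their main proteases: most cut with an active-site cysteine, *ctsd* is an aspartic protease and *ctsa* a serine carboxypeptidase. Cathepsins work at acid pH, which the vacuolar proton pump maintains: its cytosolic V1 sector hydrolyses ATP, and its membrane V0 sector carries protons through a ring of c subunits. LAMP proteins coat the inner face of the lysosomal membrane. In zebrafish, venous and lymphatic endothelial cells clear macromolecules from the blood through scavenger receptors such as Stab2, and macrophages are rich in lysosomes.

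The *akt*Δ/Δ library held 9464 barcodes and 91736598 UMIs, and the WT library 16400 barcodes and 128759603 UMIs. UMIs are tags that count single mRNA molecules at their 3′ end. Levels as CPM, a gene's UMIs in a class scaled to a common total, thus do not scale with gene length. They were compared between genes, although a low count need not mean little mRNA, as with *akt1* below. With 1 library per genotype, no test was possible: intervals are exact 95% intervals that cover counting error only, and a difference was counted where it passed 1.5-fold. Cells were clustered without the 43 genes, and 8 of 21 clusters were endothelial by *kdrl* and *cdh5*. Within these, 2132 *akt*Δ/Δ and 3109 WT cells had UMIs of all 3 vein markers, *stab2*, *dab2* and *lyve1b*, and 401 *akt*Δ/Δ and 487 WT cells had all 3 artery markers, *dll4*, *efnb2a* and *notch3*. The macrophage-like cluster had 44 *akt*Δ/Δ and 228 WT cells, and the neutrophil-like cluster 281 and 759. By this rule, the label of endothelial cells held for part of each library. Cells outside the endothelial clusters made up 31.0% of *akt*Δ/Δ and 46.0% of WT cells, and carried 50.2% of the UMIs of both libraries together. They include a low-depth cluster of 867 *akt*Δ/Δ and 1934 WT cells, with medians of 692 and 870 UMIs. Its mean *kdrl* and *cdh5* were the highest of the clusters left outside. Whether it holds endothelial cells of low depth was not tested. Of the targeted genes, *akt1* had 1 UMI in *akt*Δ/Δ and 2 UMIs in WT endothelial cells, and *akt2* was at 9.02 CPM in *akt*Δ/Δ and 13.2 CPM in WT endothelial cells. *akt3a* was at 0.759 and 0.678 CPM and *akt3b* at 8.24 and 9.08 CPM, with overlapping intervals. In sorted WT endothelial cells of this stage, the paper found *akt1* the highest of the expressed isoforms by qRT-PCR, unlike these counts. It also reports a large drop in the mRNA of each Akt gene in whole mutant embryos at a later stage. In the endothelial counts here, *akt2* alone was lower with intervals apart. Counts at the 3′ end do not show the small indels of these alleles, and they were not used to check the labels. The libraries shared 225 barcodes.

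Markers of other cell types were present in endothelial cells at higher levels in the WT library. The 11 erythroid markers summed to 1656 CPM in *akt*Δ/Δ and 4110 CPM in WT vein cells. The 8 macrophage markers summed to 1.19 CPM in *akt*Δ/Δ and 5.78 CPM in WT vein cells, and to 0.825 CPM in *akt*Δ/Δ and 5.95 CPM in WT artery cells, with *marco*, *c1qa*, *c1qb* and *c1qc* at 0 in each. In the macrophage-like cells, *mfap4* stood at 5362 CPM in *akt*Δ/Δ and 4808 CPM in WT, while *c1qa* was at 0. Of the 8 macrophage markers, 4 were counted as 2-fold or more above all other cells there. *csf1ra* had 3 UMIs in *akt*Δ/Δ and 10 UMIs in WT macrophage-like cells. Neutrophil markers summed to 218 CPM in vein and 207 CPM in artery cells of *akt*Δ/Δ, against 351 and 304 CPM in the same classes of WT. They summed to 905 CPM in *akt*Δ/Δ and 1346 CPM in WT macrophage-like cells, and to 52.1 and 134 CPM in erythroid-like cells. In vein cells the highest of the 8 neutrophil markers was at 94.2 CPM in *akt*Δ/Δ and 135 CPM in WT, while *lyz* was at 28.2 and 90.9 CPM. Whether endothelial cells make that marker themselves was not tested. The part of this RNA in the results was not tested, and its values are given beside those it moves with.

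The 43 genes took 0.284% of the UMIs of the *akt*Δ/Δ library and 0.250% of those of the WT library. Among 6 classes compared by group, their summed level was highest in macrophage-like cells, at 8740 CPM in *akt*Δ/Δ and 7572 CPM in WT. Vein cells followed at 4671 CPM in *akt*Δ/Δ and 4934 CPM in WT, and artery cells stood at 2508 CPM in *akt*Δ/Δ and 2098 CPM in WT. Neutrophil-like cells, with 1189 CPM in *akt*Δ/Δ and 1209 CPM in WT, were close to erythroid-like cells, with 876 and 982 CPM. Endocardium-like cells had 3235 CPM in *akt*Δ/Δ and 3323 CPM in WT. The intervals of the 2 libraries overlapped in neutrophil-like and endocardium-like cells and were apart in the other 4 classes. The make-up also differed by class: *ctsla* alone gave 51.9% of the sum in *akt*Δ/Δ and 49.0% in WT vein cells, whereas in macrophage-like cells the pump gene *atp6v0ca* led with 18.4% in *akt*Δ/Δ and 19.7% in WT. Outside these 6 classes, an unnamed *he1.2* cluster described below had higher levels. The 18 cathepsins of the set alone summed there to 9207 CPM in *akt*Δ/Δ and 12232 CPM in WT, of which *ctslb* gave 93.1% and 95.7%.

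**Figure D1:**
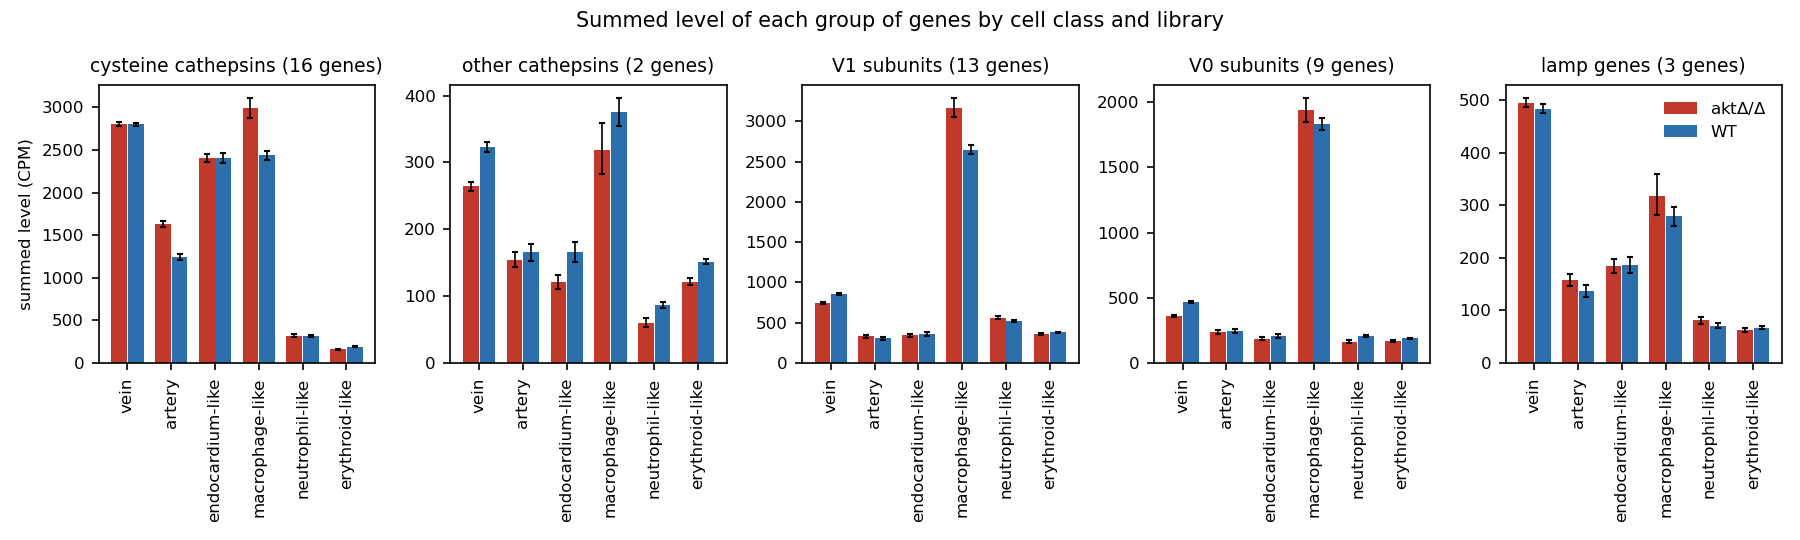
Summed level in CPM of the 5 groups of genes in 6 cell classes of the *akt*Δ/Δ library (red) and the WT library (blue); bars start at 0 and the lines are exact 95% Poisson intervals, which cover counting error only. Pump subunits peaked in macrophage-like cells, and cysteine cathepsins were high in vein, macrophage-like and endocardium-like cells. The *lamp* genes peaked in vein cells at 495 CPM in *akt*Δ/Δ and 483 CPM in WT.

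Cysteine cathepsins were dominated by *ctsla*, a cathepsin L gene and with 234558 UMIs the most abundant of the 43 genes. It averaged 1959 CPM in *akt*Δ/Δ and 1810 CPM in WT endothelial cells, and only 11.7% of its UMIs lay outside the endothelial clusters. At least 1 *ctsla* UMI was seen in 99.3% of *akt*Δ/Δ and 98.7% of WT vein cells. In erythroid-like cells, set beside them as background, the share was still 75.7% in *akt*Δ/Δ and 65.7% in WT, at median depths of 30127 and 20525 UMIs per cell against 10528.5 and 6671 in vein cells. Cells with at least 1000 UMIs were then thinned to 1000 UMIs, and cells below that depth were left out. These were 4 *akt*Δ/Δ and 8 WT vein cells, and 6 and 17 erythroid-like cells. Thinned in this way, *ctsla* was seen in 77.3% of *akt*Δ/Δ and 79.8% of WT vein cells and in 8.74% of *akt*Δ/Δ and 10.0% of WT erythroid-like cells. *ctsba*, a cathepsin B gene, followed at 156 CPM in *akt*Δ/Δ and 106 CPM in WT endothelial cells. *ctsk*, cathepsin K, the collagen-degrading protease of mammalian osteoclasts, stood at 36.7 CPM in *akt*Δ/Δ and 51.0 CPM in WT endothelial cells. Among the other cathepsins, the aspartic protease *ctsd* was at 152 CPM in *akt*Δ/Δ and 191 CPM in WT, and *ctsa*, which in mammals also protects lysosomal sialidase, at 56.1 and 56.5 CPM.

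For the c, E and B subunits of the pump, 1 paralog gave most of the UMIs in endothelial cells. The c-ring subunit was read from *atp6v0ca* at 205 CPM in *akt*Δ/Δ and 226 CPM in WT endothelial cells, against 4.89 and 7.66 CPM for *atp6v0cb*. The E subunit of V1 came from *atp6v1e1b* at 95.3 CPM in *akt*Δ/Δ and 101 CPM in WT, against 4.45 and 7.49 CPM for *atp6v1e1a*. *atp6v1ba*, a B subunit gene, reached 109 CPM in *akt*Δ/Δ and 126 CPM in WT, against 0.547 and 0.847 CPM for *atp6v1b2*. *atp6v1g1*, the G subunit, was the highest V1 gene at 144 CPM in *akt*Δ/Δ and 142 CPM in WT, and the V0 genes *atp6v0b* (the c″ subunit) and *atp6v0d1* (the d subunit) lay between 28.7 and 52.3 CPM. Of the *lamp* genes, *lamp2* led at 260 CPM in *akt*Δ/Δ and 245 CPM in WT, ahead of *lamp1a* at 53.6 and 50.8 CPM and *lamp1b* at 28.3 and 29.6 CPM. How the counting divided reads that fit both of 2 close paralogs is not given in the sources used here, so levels of a lower paralog are uncertain.

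Of the 43 genes, 8 had under 100 UMIs in the 2 libraries together and enter no comparison. *atp6v0e1* had no UMI in either library, *ctsbb* had 2, *atp6v1c2* 3, *cts12* 13, *ctsl.1* 26, *ctsll* 34, *atp6v0a1b* 61 and *ctss1* 96. Among the other 35, the cluster with the highest level over both libraries was the macrophage-like one for 21, and it was never the neutrophil-like one. How many of all genes each cluster leads is not given here, so these counts describe the 35 genes only.

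**Figure D2:**
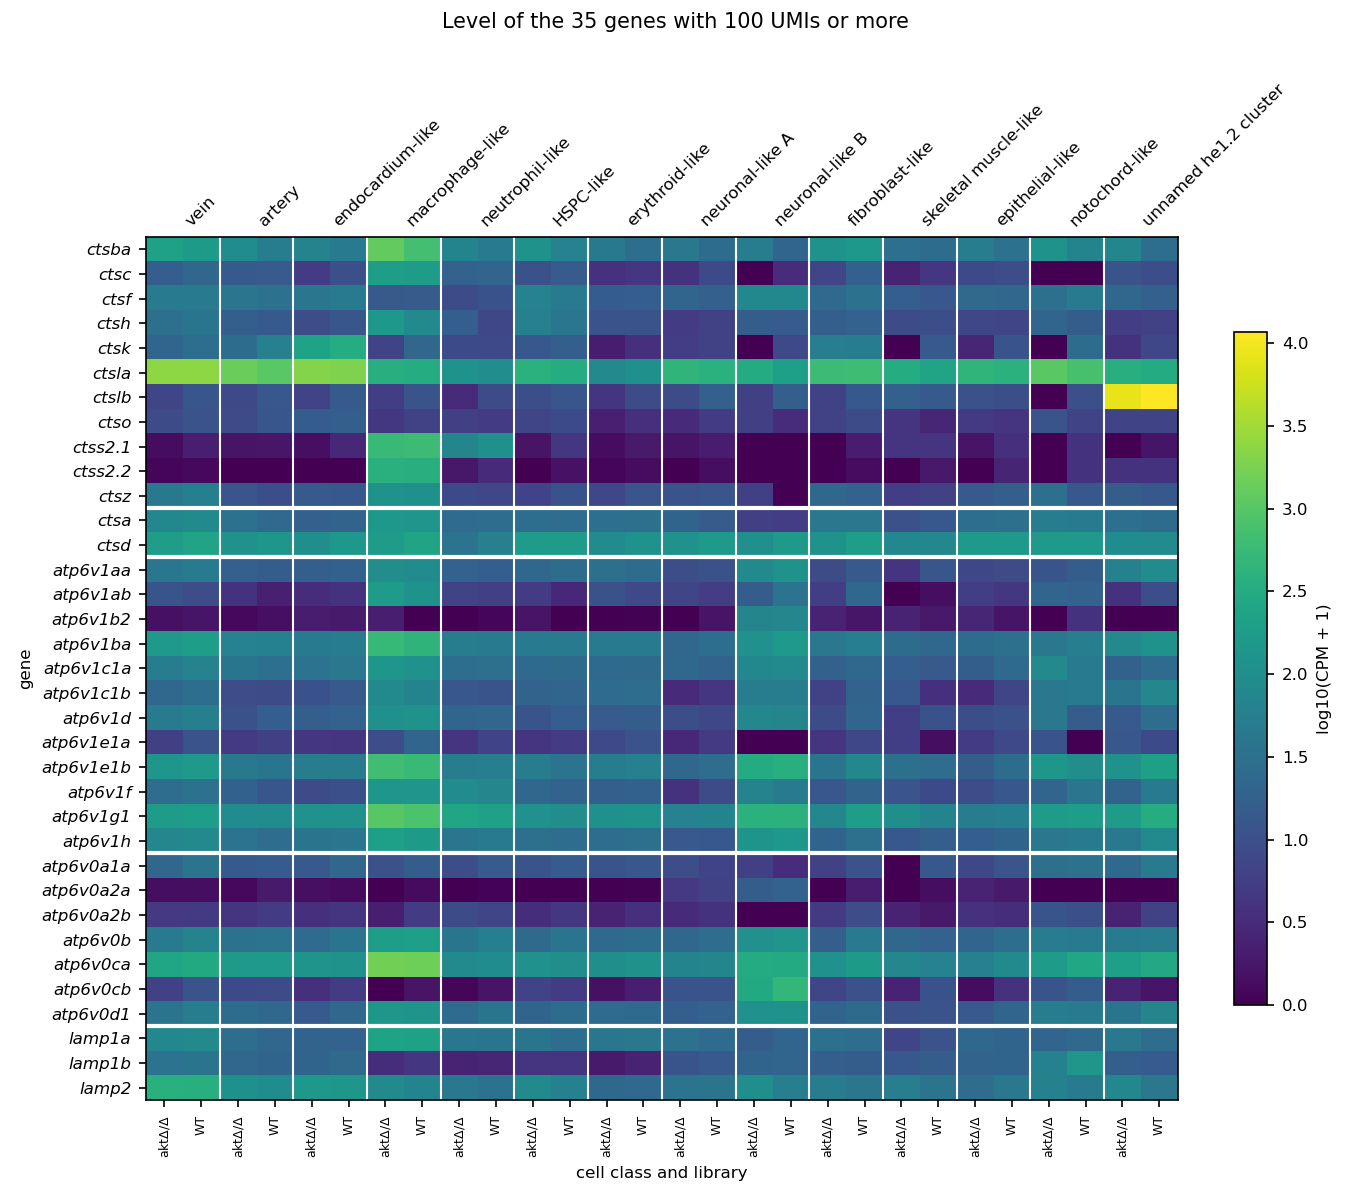
Level of each of the 35 genes with 100 UMIs or more, as log10(CPM + 1), in 14 cell classes (columns, *akt*Δ/Δ left of WT in each); white lines part cysteine cathepsins, other cathepsins, V1 subunits, V0 subunits and *lamp* genes from top to bottom. *ctsla* stood out in vein, artery and endocardium-like cells, *ctslb* in the unnamed *he1.2* cluster, and most pump subunits in macrophage-like cells.

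Vein cells were set against artery cells within each library, to describe how the module differs between the 2 vessel identities at issue in the study. Of the 43 genes, 31 had at least 100 UMIs over vein and artery cells in each library. Of these 20 were 1.5-fold or more higher in vein cells in both libraries, where 10.1% of the 8657 genes tested were, and 0 were lower in both, where 6.25% of genes were. The median log2 ratio of the 31 genes was 0.71 in *akt*Δ/Δ and 1.21 in WT, beside 0.01 and 0.07 over all genes. Because a gene with few UMIs in artery cells passes the minimum only through vein cells, the count describes genes that passed, not all 43.

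The gain in vein cells was shared by V1 subunits, *lamp* genes and some cathepsins. All 3 *lamp* genes were counted, and together they were 3.16-fold higher in *akt*Δ/Δ and 3.55-fold higher in WT vein than artery cells. *lamp2* had 382 CPM in *akt*Δ/Δ vein and 108 CPM in *akt*Δ/Δ artery cells, and 367 CPM in WT vein and 95.4 CPM in WT artery cells, which gave log2 ratios of 1.82 (interval 1.69 to 1.95) in *akt*Δ/Δ and 1.94 (1.80 to 2.095) in WT. Thinned to 1000 UMIs, 30.4% of *akt*Δ/Δ and 29.1% of WT vein cells had a *lamp2* UMI, against 11.5% of *akt*Δ/Δ and 10.5% of WT artery cells and 2.52% and 2.97% of erythroid-like cells.

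Of the 11 V1 subunit genes that passed, 9 were counted as higher in vein cells, and their summed level was 2.25-fold higher in *akt*Δ/Δ and 2.83-fold higher in WT. *atp6v1d*, whose product lies in the rotor of the pump, had 44.0 CPM in *akt*Δ/Δ vein and 9.28 CPM in *akt*Δ/Δ artery cells, and 56.7 CPM in WT vein and 15.6 CPM in WT artery cells (log2 ratios 2.25 and 1.86). *atp6v1e1b* had 137 CPM in *akt*Δ/Δ vein and 42.7 CPM in *akt*Δ/Δ artery cells, and 156 and 37.2 CPM in WT (log2 ratios 1.69 and 2.07). *atp6v1ab*, a gene of the catalytic A subunit, was lower in level, at 10.4 and 2.89 CPM in *akt*Δ/Δ vein and artery cells and 8.12 and 1.24 CPM in WT. Its artery values rested on 14 and 5 UMIs, so the log2 ratios of 1.85 and 2.71 had wide intervals (1.08 to 2.74 and 1.46 to 4.35). Of the 6 V0 genes that passed only *atp6v0ca* and *atp6v0a1a*, an a subunit gene, were counted, with log2 ratios of 0.71 and 0.63 in *akt*Δ/Δ and 0.91 and 1.34 in WT.

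Cathepsins differed among themselves in this comparison. *ctsz*, a carboxypeptidase, had 43.3 CPM in *akt*Δ/Δ vein and 10.9 CPM in *akt*Δ/Δ artery cells, and 56.2 CPM in WT vein and 8.42 CPM in WT artery cells (log2 ratios 1.99 and 2.74). *ctsba*, *ctsh*, *ctsla*, *ctsa* and *ctsd* were also counted as higher in vein cells. *ctsla* had 2422 CPM in *akt*Δ/Δ vein and 1418 CPM in *akt*Δ/Δ artery cells, and 2419 and 1048 CPM in WT (log2 ratios 0.77 and 1.21). The lowest ratios belonged to *ctsk*, *ctslb*, *ctso*, *atp6v0cb* and *atp6v0a2b*. *ctsk* was lower in vein cells, at 20.5 CPM in *akt*Δ/Δ vein and 26.2 CPM in *akt*Δ/Δ artery cells, and 28.4 and 57.5 CPM in WT, but it passed 1.5-fold in WT alone (log2 ratios −0.35 and −1.02). For *ctslb*, *ctso*, *atp6v0cb* and *atp6v0a2b*, the intervals of the ratio spanned 0 in each library.

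**Figure D3:**
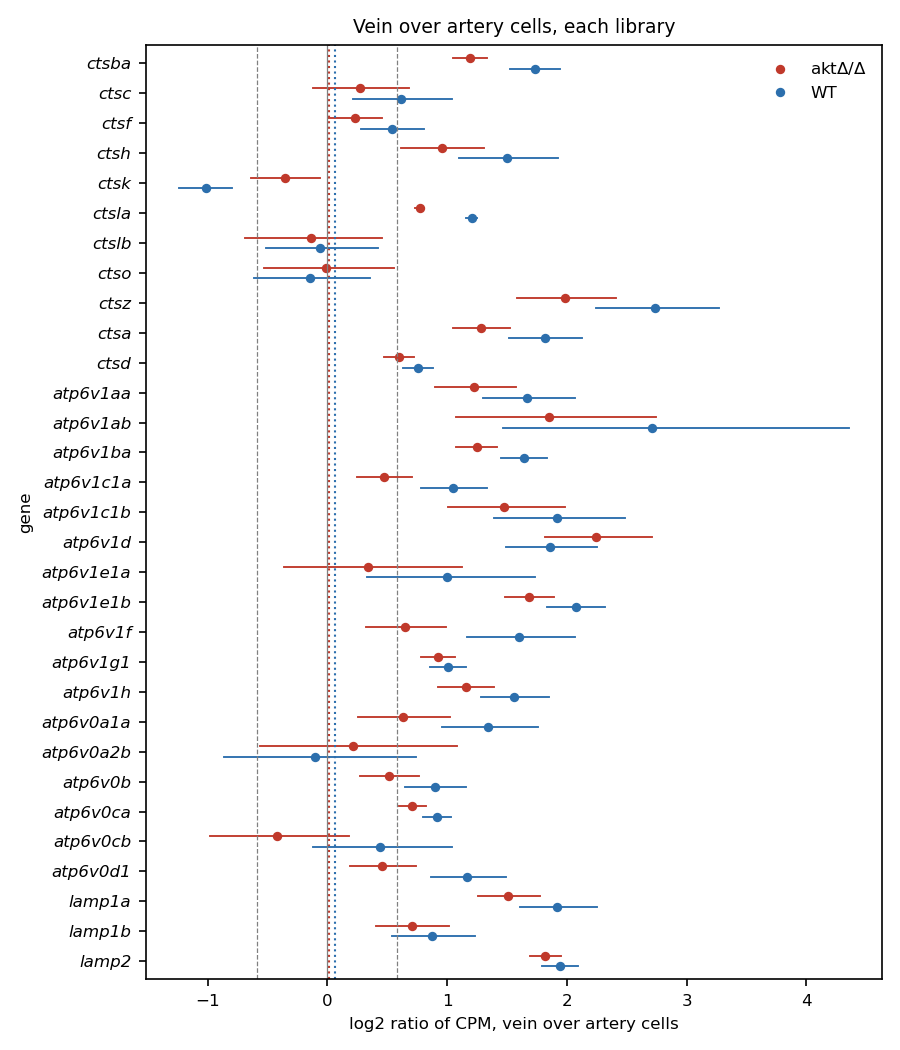
Log2 ratio of CPM, vein over artery cells, of *akt*Δ/Δ (red, upper point) and WT (blue, lower point) for the 31 genes that passed the UMI minimum; horizontal lines are exact binomial 95% intervals, dashed lines mark 1.5-fold and dotted lines the median of all genes. Of the 11 V1 subunits 9, and all 3 *lamp* genes, lay to the right of 1.5-fold, and 27 of 31 ratios were smaller in *akt*Δ/Δ than in WT.

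The vein over artery ratio was smaller in *akt*Δ/Δ than in WT for 27 of the 31 genes (87.1%), with a median difference of −0.40 on the log2 scale. This was also the case for 60.9% of all genes tested, with a median difference of −0.08. Among all genes counted as higher in vein cells the share was 73.9%, with a median difference of −0.23. Among those of the set it was 19 of 20, with a median difference of −0.42. For *ctsba* the ratio was 1.19 in *akt*Δ/Δ and 1.73 in WT, and for *atp6v1f*, the F subunit, 0.65 and 1.60. *atp6v1d* was an exception, with 2.25 in *akt*Δ/Δ and 1.86 in WT. Of the 6 genes that defined the classes, 5 moved the same way, with log2 ratios nearer to 0 in *akt*Δ/Δ: *stab2* had 1.26 in *akt*Δ/Δ and 1.92 in WT, *dab2* 1.62 and 2.12, *dll4* −2.09 and −2.43, *efnb2a* −2.98 and −3.37, and *notch3* −3.77 and −3.90. The other, *lyve1b*, had 7.42 and 6.68. Cells were selected by UMIs of these 6 genes, so their ratios can depend on that selection and on depth. Median depths were 10528.5 UMIs in vein and 11186 UMIs in artery cells of *akt*Δ/Δ, against 6671 and 7392 UMIs in WT. With equal depths, an alternative used for the 1.5-fold counts, *ctsd* fell short of 1.5-fold. The part of depth in the difference of the ratios between the libraries was not tested. Of 58 further lysosome genes, described below, 48 (82.8%) had a smaller ratio in *akt*Δ/Δ, with a median difference of −0.27. A smaller contrast in *akt*Δ/Δ was thus also common among all genes, at a lower share than in the set. It was not particular to the set, since the share among further lysosome genes was near that of the set. The difference was not tested, and the classes of each genotype come from 1 library.

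From a list of 91 further lysosome genes, 58 passed the minimum. Of these 35 were 1.5-fold or more higher and 0 lower in vein cells in both libraries, as against 20 and 0 of 31 in the set. Of all genes, 10.1% were higher and 6.25% lower. The 35 included 18 of 25 hydrolase genes that passed, among them *lgmn* (legumain, the asparaginyl endopeptidase that processes cathepsins), *hexa* and *hexb*. The transcription factor genes *tfec* and *tfe3a*, of a family that in mammals controls lysosome genes, were among them too. Of 7 cathepsin inhibitor genes that passed, 4 were higher and 0 lower. With endothelial cells holding UMIs of 2 or more myeloid markers left out the count of 20 genes was unchanged. Under 1 or more of the alternatives *atp6v0a1a*, *atp6v1f*, *ctsd* and *lamp1b* fell short of 1.5-fold.

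Macrophage-like cells were set against all endothelial cells of the same library. Levels in macrophage-like cells were shifted for genes in general: the median log2 ratio over all 10660 genes tested was −0.50 in *akt*Δ/Δ and −0.53 in WT, beside 1.90 and 1.66 for the genes of the set that passed. Of these 33 genes, 22 were 1.5-fold or more higher in both libraries, where 13.2% of all genes were, and 8 were lower, where 44.2% were. When each class was scaled by the median ratio of all genes, 23 were higher and 6 lower, with 22.9% and 31.6% of all genes. The minimum is on the sum of the classes, so some genes passed through 1 class alone: *ctss2.1* and *ctss2.2* had 25 and 7 UMIs in *akt*Δ/Δ endothelial cells, and *ctsk*, *ctso*, *lamp1b* and *atp6v0cb* had 5, 3, 2 and 0 UMIs in *akt*Δ/Δ macrophage-like cells. The counts therefore describe the genes that passed and support nothing about all 43.

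By summed level, the V0 and V1 sectors of the pump had the largest ratios of the role groups. *atp6v0ca* gave 82.9% of the V0 sum in *akt*Δ/Δ and 81.5% in WT macrophage-like cells, and by gene the V0 median was 0.69 in *akt*Δ/Δ and 0.96 in WT, against 1.99 and 1.66 for cysteine cathepsins and 2.27 and 1.79 for V1. All 11 V1 genes that passed were counted as higher, and their summed level was 5.68-fold higher in *akt*Δ/Δ and 4.42-fold higher in WT. One of them, *atp6v1e1a*, had 7 UMIs in *akt*Δ/Δ macrophage-like cells, and it fell short of 1.5-fold with means of single cells and without the 5% of cells with most UMIs. *atp6v1ab* was the V1 gene with the largest ratio, at 171 CPM in *akt*Δ/Δ and 117 CPM in WT macrophage-like cells, against 6.62 and 4.93 CPM in endothelial cells (log2 ratios 4.70 and 4.56). Its paralog *atp6v1aa*, the other gene of the catalytic subunit, had 102 and 89.8 CPM in macrophage-like cells against 30.3 and 32.4 CPM in endothelial cells. The order of the A subunit paralogs thus differed, with *atp6v1ab* above *atp6v1aa* in macrophage-like cells and below it in endothelial cells of both libraries. In the V0 sector, *atp6v0ca* reached 1608 CPM in *akt*Δ/Δ and 1494 CPM in WT (log2 ratios 2.97 and 2.73), *atp6v0b* and *atp6v0d1* were also counted as higher, and *atp6v0cb* and *atp6v0a1a* as lower, the last of these lost under 3 alternatives.

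Cathepsins and *lamp* genes were split between the 2 directions. *ctss2.1* and *ctss2.2*, cathepsin S genes, the protease that trims the invariant chain of MHC class II in mammals, were at 559 and 374 CPM in *akt*Δ/Δ and at 607 and 351 CPM in WT macrophage-like cells. In endothelial cells *ctss2.1* was at 0.441 CPM in *akt*Δ/Δ and 1.43 CPM in WT, beside 0.366 and 0.952 CPM in erythroid-like cells. Of all *ctss2.2* UMIs, 93.1% lay in the macrophage-like cluster. *ctsc*, which activates granule serine proteases in mammals, had 190 CPM in *akt*Δ/Δ and 174 CPM in WT macrophage-like cells, against 13.02 and 16.4 CPM in endothelial cells (log2 ratios 3.87 and 3.41), and *ctsba* had 1216 and 724 CPM against 156 and 106 CPM (2.96 and 2.77).

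The gene with most UMIs went the other way. *ctsla* had 363 CPM in *akt*Δ/Δ and 332 CPM in WT macrophage-like cells, against 1959 and 1810 CPM in endothelial cells, a log2 ratio of −2.43 (interval −2.60 to −2.27) in *akt*Δ/Δ and −2.45 (−2.53 to −2.36) in WT. *lamp2* and *lamp1b* were lower as well, with log2 ratios of −1.56 and −3.59 in *akt*Δ/Δ and −1.89 and −3.13 in WT, while *lamp1a*, at 228 CPM in *akt*Δ/Δ and 209 CPM in WT, was higher (2.09 and 2.04). The *lamp* sum was therefore near that of endothelial cells, at 0.93 of it in *akt*Δ/Δ and 0.855 in WT. *ctsk* had 5 UMIs in *akt*Δ/Δ and 68 in WT macrophage-like cells (log2 ratios −2.65 and −1.29). *atp6v0cb* had 0 UMIs in *akt*Δ/Δ macrophage-like cells and 2 in WT. A floor of 3 counts bounds it at 1.39-fold lower or more in *akt*Δ/Δ, so that its place among the 8 rests on a count of 0.

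Of the 91 further lysosome genes, 71 passed, and 33 were higher and 10 lower in macrophage-like cells in both libraries. Of all genes, 13.2% were higher and 44.2% lower. Of 5 pump accessory genes that passed, 4 were higher: *tcirg1b* (an a subunit gene whose symbol falls outside the 43), *rnaseka*, *atp6ap1b* and *atp6ap2*. Endothelial markers summed to 91.6 CPM in *akt*Δ/Δ and 264 CPM in WT macrophage-like cells, against 3263 and 3514 CPM in vein cells. Their part in the *ctsla* level of macrophage-like cells was not tested.

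Neutrophil-like cells had less pump RNA than macrophage-like cells, with a summed level of 726 CPM in *akt*Δ/Δ and 732 CPM in WT, against 5108 and 4480 CPM. Of 32 genes that passed, 3 were 1.5-fold or more higher than in endothelial cells in both libraries, where 19% of all genes were, and 19 were lower, where 41.3% were. The median log2 ratio was −0.74 in *akt*Δ/Δ and −0.93 in WT, beside −0.40 and −0.41 over all 11073 genes. Scaled by the median ratio of all genes, 5 were higher and 12 lower, with 28% and 32% of all genes, so the balance of the 2 directions depends on the scaling. As above, *ctss2.1* passed through neutrophil-like cells alone, and *atp6v0cb*, *lamp1b* and *ctslb* (1, 9 and 13 UMIs in *akt*Δ/Δ neutrophil-like cells) through endothelial cells.

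The 3 genes counted as higher were *ctss2.1*, *atp6v1f* and *atp6v0a2b*. *ctss2.1* had 69.9 CPM in *akt*Δ/Δ and 110 CPM in WT neutrophil-like cells, against 559 and 607 CPM in macrophage-like cells. *atp6v1f* had 89.96 CPM in *akt*Δ/Δ and 76.5 CPM in WT, against 21.3 and 22.9 CPM in endothelial cells (log2 ratios 2.08 and 1.74), and it was the V1 gene in which neutrophil-like cells came nearest to the 135 and 129 CPM of macrophage-like cells. *atp6v0a2b*, an a subunit gene, was low everywhere, with 7.50 CPM in *akt*Δ/Δ and 6.06 CPM in WT neutrophil-like cells against 3.18 and 3.77 CPM in endothelial cells, and it fell short of 1.5-fold without the 5% of cells with most UMIs. *atp6v1g1* (243 and 211 CPM) had log2 ratios of 0.76 in *akt*Δ/Δ and 0.57 in WT and *ctsc* 0.49 and 0.31, short of 1.5-fold in at least 1 library.

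The lowest ratios were those of *atp6v0cb*, *lamp1b*, *ctsla*, *lamp2* and *ctsk*. *ctsla* fell to 118 CPM in *akt*Δ/Δ and 96.5 CPM in WT neutrophil-like cells (log2 ratios −4.05 and −4.23), near the 80.8 and 111 CPM of erythroid-like cells. *lamp2* had 41.1 CPM in *akt*Δ/Δ and 32.0 CPM in WT (−2.66 and −2.94), and *lamp1b* 1.47 and 1.73 CPM from 9 and 22 UMIs. *ctsd* was lower too, at 34.4 CPM in *akt*Δ/Δ and 59.0 CPM in WT, against 152 and 191 CPM in endothelial cells. Among the 91 further lysosome genes 73 passed, with 12 higher and 33 lower in both libraries, where 19% and 41.3% of all genes were. These counts are near the shares of genes in general.

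**Figure D4:**
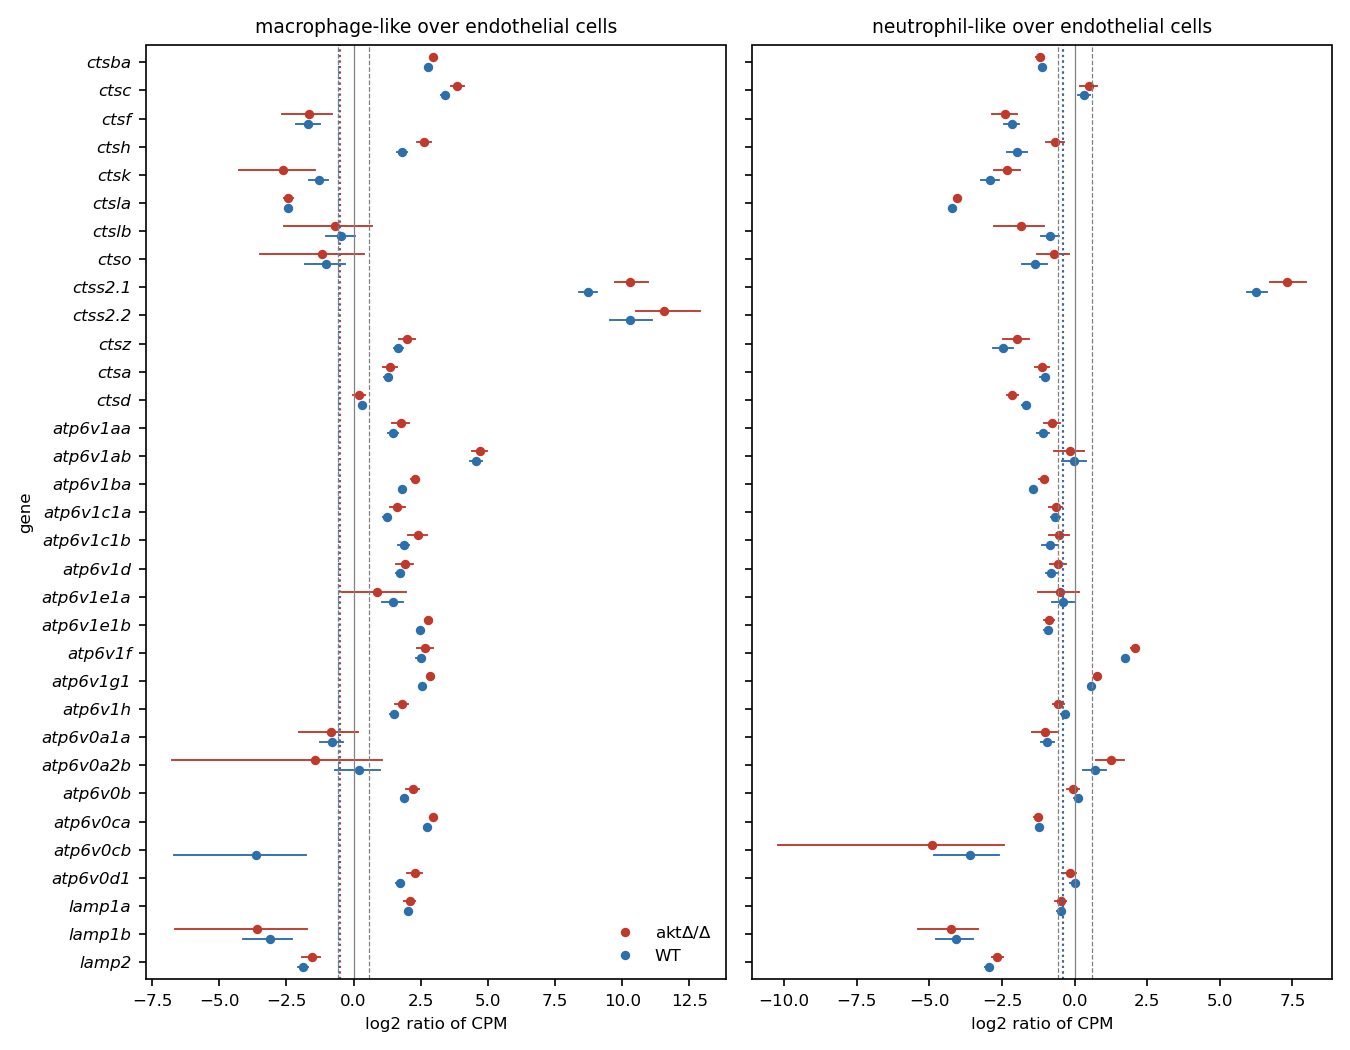
Log2 ratio of CPM of macrophage-like (left) and neutrophil-like (right) over endothelial cells, with *akt*Δ/Δ in red (upper point) and WT in blue (lower point); horizontal lines are exact binomial 95% intervals, dashed lines 1.5-fold and dotted lines the median of all genes. V1 subunits lay to the right of 1.5-fold in macrophage-like cells, most were at or left of 0 in neutrophil-like cells, and *ctsla*, *lamp1b* and *lamp2* lay far to the left in both.

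A few genes had their highest level in other cells, which were singled out after their values were seen. *ctslb*, the second cathepsin L gene, known in zebrafish as a gene of the hatching gland, had 89.9% of its UMIs in 1 cluster. That cluster, with the hatching enzyme gene *he1.2* among its 10 leading genes, also held epidermal markers and was left unnamed. It had *ctslb* at 8574 CPM in *akt*Δ/Δ and 11705 CPM in WT. Within it, the 26 *akt*Δ/Δ and 39 WT cells with 5 or more *he1* UMIs had *ctslb* at 29232 and 28287 CPM, whereas the other 64 and 156 cells had 12.4 and 27.0 CPM. These 26 and 39 cells thus held 89.9% and 89.8% of the *ctslb* UMIs of their library. *ctsla*, its paralog, was at 259 CPM in *akt*Δ/Δ and 260 CPM in WT in the same cells.

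*ctsk* was highest in endocardium-like cells, at 224 CPM in *akt*Δ/Δ and 324 CPM in WT, against 26.2 and 57.5 CPM in artery cells and 20.5 and 28.4 CPM in vein cells. These cells, the lining of the heart, held 34.98% of all *ctsk* UMIs. Thinned to 1000 UMIs, 21.2% of *akt*Δ/Δ and 30.3% of WT endocardium-like cells had a *ctsk* UMI, against 0 of 595 *akt*Δ/Δ and 0.318% of WT erythroid-like cells. The 0 allows a share of up to 0.618% by its exact interval. Pump paralogs that were rare elsewhere were highest in the smaller neuronal-like cluster, of 28 *akt*Δ/Δ and 77 WT cells: *atp6v0cb* reached 296 CPM in *akt*Δ/Δ and 485 CPM in WT, and *atp6v1b2* 69.1 and 75.2 CPM. *atp6v0cb* thus lay near or above its paralog *atp6v0ca* there, which had 321 and 308 CPM. The pump as a whole was also high in this cluster, at 2305 CPM in *akt*Δ/Δ and 2663 CPM in WT. Vein cells had pump sums of 1106 and 1328 CPM. The smaller neuronal-like cluster had 5 of 10 neuronal markers at 2-fold or more above other cells. The insulin gene *ins* was among its 10 leading genes, and which of its cells hold the pump RNA was not tested.

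*akt*Δ/Δ cells were then set against WT cells within each class, to describe the module by genotype. In vein cells, 31 genes passed, 0 were 1.5-fold or more higher in *akt*Δ/Δ, where 4.41% of all genes were, and 4 were lower, where 9.94% were. The share of 4 in 31 is thus near that of genes in general. The median log2 ratio was −0.30, beside −0.07 over all genes. Pump subunits summed to 1106 CPM in *akt*Δ/Δ and 1328 CPM in WT vein cells (log2 ratio −0.26, interval −0.29 to −0.24), and cathepsins to 3070 and 3122 CPM (−0.02).

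The 4 lower genes were *atp6v1e1a*, *atp6v0cb*, *ctslb* and *atp6v0a1a*. *atp6v1e1a* had 4.97 CPM in *akt*Δ/Δ and 9.88 CPM in WT vein cells, *atp6v0cb* 5.09 and 10.1 CPM, and *atp6v0a1a* 20.7 and 35.8 CPM (log2 ratios −0.99, −0.98 and −0.79). The first and second of these are the low paralogs of pairs whose main gene, *atp6v1e1b* or *atp6v0ca*, had ratios of −0.19 and −0.25. *ctslb* had 6.20 CPM in *akt*Δ/Δ and 11.2 CPM in WT vein cells, and *he1.2*, whose cells hold nearly all *ctslb*, moved with it at 7.30 and 10.9 CPM. *ctslb* was also at 3.29 and 7.94 CPM in erythroid-like cells, and the part of free RNA in its difference was not tested. *ctsla* was at 2422 CPM in *akt*Δ/Δ and 2419 CPM in WT vein cells (log2 ratio 0.00, interval −0.02 to 0.02) and *lamp2* at 382 and 367 CPM (0.06). The highest ratios, short of 1.5-fold, were those of *ctsba* (0.38) and *atp6v1ab* (0.36). *lamp1a* stood at −0.04 and *atp6v0d1*, next above the 4 lower genes, at −0.50.

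In artery cells 23 genes passed. Of these 2 were higher in *akt*Δ/Δ, where 5.07% of all genes were, and 2 were lower, where 4.63% were, and the median was 0.18 beside 0.02 over all genes. *ctsba* had 93.4 CPM in *akt*Δ/Δ and 49.3 CPM in WT artery cells (log2 ratio 0.92, interval 0.68 to 1.17), and *ctsk* had 26.2 and 57.5 CPM (−1.13, −1.46 to −0.82). Both were counted under every alternative tried. *atp6v1f*, at 17.5 CPM in *akt*Δ/Δ and 11.2 CPM in WT, and *atp6v1d*, at 9.28 and 15.6 CPM, rested on 45 to 85 UMIs in a library and each fell short of 1.5-fold or of the UMI minimum under 3 or more alternatives. *ctsla* was at 1418 CPM in *akt*Δ/Δ and 1048 CPM in WT (0.44), the largest difference in CPM in these cells but under 1.5-fold. Also short of 1.5-fold were *ctsa* (0.46) and *lamp1a* (0.37) at the high end and *ctsd* (−0.22), *atp6v0b* (−0.11) and *ctsc* (−0.10) at the low end. *ctsk* in endocardium-like cells had a ratio of −0.53, and in the larger artery-led cluster of −1.09.

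In macrophage-like cells, where 24 genes passed, 2 were higher in *akt*Δ/Δ, where 6.76% of all genes were, and 0 were lower, where 14.5% were. *ctsba* had 1216 CPM in *akt*Δ/Δ and 724 CPM in WT (log2 ratio 0.75, interval 0.64 to 0.85), and *ctsh*, an aminopeptidase, 149 and 87.6 CPM (0.77, 0.45 to 1.07). The pump summed to 5108 CPM in *akt*Δ/Δ and 4480 CPM in WT (0.19), so that it was higher in *akt*Δ/Δ macrophage-like cells and lower in *akt*Δ/Δ vein cells, a difference that was not tested. *lamp2* (0.41), *atp6v1c1b* (0.37) and *atp6v1ab* (0.56) followed, and at the low end stood *ctsd* (−0.45), *atp6v1d* (−0.12), *ctss2.1* (−0.12), *atp6v0b* (−0.10) and *atp6v1f* (0.06), none past 1.5-fold. Macrophage markers moved too: *mpeg1.1* was at 332 CPM (interval 295 to 373) in *akt*Δ/Δ and 179 CPM (165 to 194) in WT macrophage-like cells. *mfap4* was at 5362 and 4808 CPM, and *marco* went the other way, with 2 and 33 UMIs. The part of such marker differences in the *ctsba* and *ctsh* ratios was not tested. With 44 *akt*Δ/Δ cells, and *lyz* at 14.1 CPM in *akt*Δ/Δ against 351 CPM in WT macrophage-like cells, how far the 2 sets hold the same cells was not tested.

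In neutrophil-like cells, 27 genes passed, 1 was higher, where 5.45% of all genes were, and 4 were lower, where 8.88% were. *ctsh* had 15.2 CPM in *akt*Δ/Δ and 6.38 CPM in WT (log2 ratio 1.25, interval 0.80 to 1.70). *ctsd* had 34.4 and 59.0 CPM (−0.78), *atp6v0a1a* 8.15 and 13.8 CPM (−0.76), *ctss2.1* 69.9 and 110 CPM (−0.65) and *ctslb* 2.12 and 7.71 CPM (−1.86). The summed level of the 8 neutrophil markers moved with these, at 13536 CPM in *akt*Δ/Δ and 23928 CPM in WT, and its part was not tested. In erythroid-like cells *ctslb* was at 3.29 CPM in *akt*Δ/Δ and 7.94 CPM in WT. Short of 1.5-fold were *ctsba* (0.49), *lamp2* (0.36), *atp6v0a2b* (0.31), *ctsla* (0.30) and *atp6v0b* (−0.58).

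**Figure D5:**
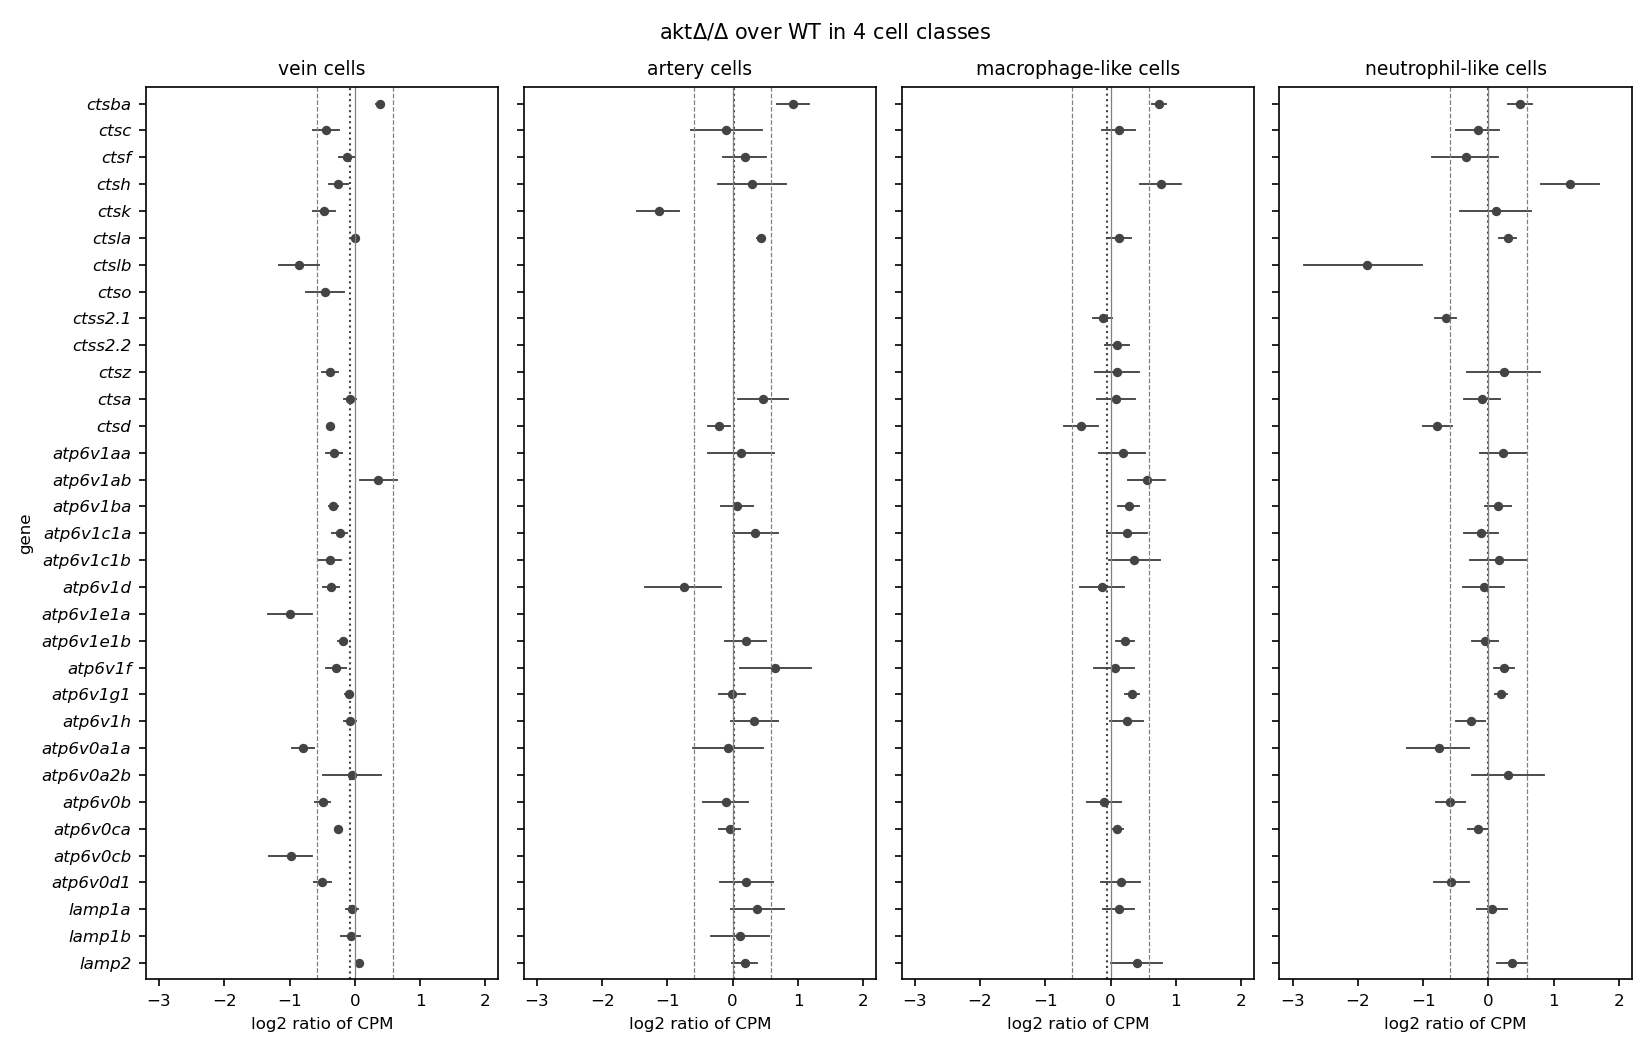
Log2 ratio of CPM, *akt*Δ/Δ over WT, in vein, artery, macrophage-like and neutrophil-like cells for the genes that passed the UMI minimum in each class; horizontal lines are exact binomial 95% intervals, dashed lines mark 1.5-fold and dotted lines the median of all genes. *ctsba* lay right of 0 in all 4 classes, and V1 and V0 subunits lay mostly left of 0 in vein cells and mostly near 0 in artery cells.

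Over the clusters, *ctsba* was higher in *akt*Δ/Δ in 16 of the 17 clusters where it had at least 100 UMIs over both libraries, and past 1.5-fold in 11 of them. The exception was the fibroblast-like cluster, with a log2 ratio of −0.32, and the highest value was 0.99 in the HSPC-like (blood stem and progenitor) cluster. The fibroblast-like cluster, of 127 *akt*Δ/Δ and 382 WT cells, also had 7 of 7 pigment and 5 of 8 notochord markers at 2-fold or more. Whether its mix of cells differed between the libraries was not tested. In erythroid-like cells *ctsba* was at 42.5 CPM in *akt*Δ/Δ and 28.4 CPM in WT. *atp6v0b* was lower in *akt*Δ/Δ in 15 of 15 clusters, *atp6v0a1a* in 9 of 9 and *ctsd* in 17 of 19. *ctsla* was higher in 19 of 21, of which 2 passed 1.5-fold, and *lamp1a* was higher in 14 of 15, of which 0 passed. Other genes of the set were mixed, such as *ctsf*, higher in 8 and lower in 7 of 15 clusters. How often genes in general keep 1 direction over the clusters is not given here. In 2 of the 4 classes compared above the genotype ratio had opposite signs, with both intervals clear of 0, for 7 of the 29 genes that passed in 2 or more classes, where 5.78% of all genes did so. The intervals narrow with the number of UMIs, and genes were not matched on it. The clusters come from the same pair of libraries, so their number does not add replicates.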

How the data were processed

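Sorted *kdrl*:mCherry cells of pooled 24 hpf embryos were captured on a 10x droplet system, with 1 library per genotype. The deposited counts are whole UMIs per gene and barcode, made by the authors with Cell Ranger 5.0.0 per the submitters' processing notes. The genome build and annotation were not given in the sources used here, and replicates were not pooled.

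A barcode was kept when 200 or more genes were detected in it, and a gene when 3 or more cells had it, which left 25860 cells and 26130 genes. The 25860 cells were clustered with Seurat 5.3.0 in R 4.3.3 on 2000 variable genes, 30 principal components and a resolution of 0.6, with 5 of the 43 genes removed from the variable genes. No doublet caller was run, and leaving out the 5% of cells with most UMIs was an alternative. UMIs were summed per class and library in Python 3.11.15 (numpy 2.4.6, scipy 1.17.1, pandas 2.3.3, figures in matplotlib 3.10.9).

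A gene entered a comparison with at least 100 UMIs over the 2 classes compared, in each library. With 1 library per genotype no p-value was computed, and a call was a ratio past 1.5-fold, in both libraries where classes were compared. Intervals at 95% are exact (Poisson for CPM, Clopper-Pearson for shares, binomial for ratios). The scripts were tested on simulated data.

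In each comparison the 5 highest and 5 lowest ratios were named, with the 3 genes of highest endothelial level in each role group. A further part of the rule, for genes mainly outside endothelium, could not be applied, since those cells held 50.2% of UMIs, and genes outside the rule were named after their values were seen. The 43 genes and all lists were chosen with earlier results of these data known. No columns of the authors' own comparisons were present. Alternatives covered resolution (0.8), genes per cell (500), scaling, UMI minimum (30), depth, cell means and class definition.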

Additional observations from a re-analysis of the deposited data

Results flagged for a closer look

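The log2 ratio of *akt*Δ/Δ over WT had opposite signs in 2 cell classes, with both counting intervals clear of 0, for 7 of the 29 genes that passed the UMI minimum in 2 or more classes, and for 5.78% of all genes. None of these differences was tested, since each class of each genotype comes from 1 library.

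Vein cells were lower and macrophage-like cells higher in *akt*Δ/Δ for 5 genes. *ctsh*, an aminopeptidase, had ratios of −0.25 in vein and 0.77 in macrophage-like cells, a difference of −1.02. *atp6v1ba* had −0.33 and 0.28 (difference −0.60), *atp6v1e1b* −0.19 and 0.23 (−0.42), *atp6v1g1* −0.09 and 0.33 (−0.41) and *atp6v0ca* −0.25 and 0.11 (−0.36).

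Against neutrophil-like cells, *ctsh* differed by −1.50 in vein cells, with 1.25 in neutrophil-like cells. *atp6v1f* had −0.30 in vein and 0.23 in neutrophil-like cells (−0.53), and *atp6v1g1* −0.09 and 0.20 (−0.29). *atp6v0ca* had 0.11 in macrophage-like and −0.16 in neutrophil-like cells (0.27).

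Between vessel classes, *atp6v1f* had −0.30 in vein and 0.65 in artery cells, a difference of −0.95, and *atp6v1c1a* −0.23 and 0.34, a difference of −0.58.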

How the results depend on the processing

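No paired analysis was possible because each genotype had 1 library, and no replicate could be left out. The count of genes higher in vein than artery cells was 20 and ranged from 18 to 26. Which genes pass the UMI minimum can change with the alternative, and shares of all genes are not given in this paragraph. Its counts therefore do not show a change of the set relative to genes in general. With vein-led and artery-led clusters in place of the 3-marker classes, an alternative chosen after seeing the data, 1 gene was lower in vein cells, against 0. Scaled by the median of ratios, 5 genes were higher and 12 lower in neutrophil-like cells, against 3 and 19. For *akt*Δ/Δ over WT in artery cells, 4 genes were lower with a UMI minimum of 30, and 1 with equal depths or without the 5% of cells with most UMIs, against 2. There, 1 gene was higher with means of single cells, with 2 of 3 markers or with artery-led clusters, against 2. In macrophage-like cells 4 genes were lower with a UMI minimum of 30, against 0, and 4 higher with means of single cells, against 2. In neutrophil-like cells 3 genes were higher with means of single cells, against 1. Of 948 values of single genes under the alternatives, 882 stayed within their counting interval, 66 moved beyond it and 0 reversed a call. The UMI minimum of 30 does not change a ratio, so its 99 values could not move. Resolution 0.8 and 500 genes per cell left nearly the same cells, and 0 values moved under each. Scaled by the median of ratios, 28 values moved and 71 stayed. With means of single cells 19 moved and 80 stayed, and with vein-led and artery-led clusters 10 moved and 30 stayed. The causes were not tested. Genes of few UMIs in a class had wide intervals.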
